A study of Mus musculus with 161 samples.

Results

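The cells described here are the macrophages of the single-cell library made after 24 h of interleukin-4 (IL-4), the M2 condition of the study. All 2924 barcodes of that library were taken, which is 12.8% of the 22881 barcodes in the 7 single-cell libraries, and no measured value was used to choose them. The study followed bone marrow-derived macrophages (BMDMs) of C57BL/6J mice, 6 to 10 weeks old, as they were polarized and repolarized with cytokines in culture. Marrow cells were grown with 20 ng/mL M-CSF, the growth factor present in every group used here, and were treated on day 7. M2 cells received 25 ng/mL IL-4, and M0 cells were kept in the base medium. The comparisons are with M0 cells at 24 h, 2727 barcodes, and with M2 cells at 6 h, 2709 barcodes, to ask how uniformly the cells had taken up the M2 program after 24 h. Each single-cell condition was 1 library from a single biological replicate, so a difference between libraries cannot be told apart from a difference between dishes or preparations. Bulk RNA-seq of the same 3 conditions had 3 biological replicates each and gave the only tests.

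IL-4 binds a receptor made of Il4ra and a partner chain, Janus kinases attached to the receptor are activated, and the transcription factor STAT6 is phosphorylated, enters the nucleus and switches on its targets. In macrophages these targets define what is called alternative activation, which is tied to wound repair, tissue remodelling and the response to helminths. Retnla (Fizz1, RELM-alpha) and Chil3 (Ym1) encode secreted proteins, Mgl2 (CD301b) a galactose-binding C-type lectin of the cell surface, Arg1 the enzyme that splits arginine into ornithine and urea, Fn1 the matrix protein fibronectin and Ear2 a secreted ribonuclease. All are used as markers of the M2 state in the mouse, and what is usually measured is their mean over a culture rather than their spread over its cells.

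Promoter sequences are shown for 3 of the markers, those with the most UMIs among the ones that had an entry in the RefSeq table of GRCm38.p6, since STAT6 is known to prefer the motif TTCNNNNGAA, a palindrome that reads the same on both strands. Each sequence runs 5′ to 3′ from 250 bases before to 50 bases after the annotated start. Capitals mark the match to TTCNNNNGAA. The windows are chr16:48842359-48842658 on the plus strand for Retnla, chr3:106167515-106167814 on the minus strand for Chil3 and chr11:70130107-70130406 on the plus strand for Mgl2.
Retnla: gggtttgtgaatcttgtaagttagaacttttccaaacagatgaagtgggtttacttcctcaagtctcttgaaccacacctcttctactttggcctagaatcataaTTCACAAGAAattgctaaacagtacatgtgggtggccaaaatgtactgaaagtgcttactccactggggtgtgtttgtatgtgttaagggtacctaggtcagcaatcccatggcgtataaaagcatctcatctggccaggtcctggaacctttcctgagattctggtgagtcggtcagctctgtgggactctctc
Chil3: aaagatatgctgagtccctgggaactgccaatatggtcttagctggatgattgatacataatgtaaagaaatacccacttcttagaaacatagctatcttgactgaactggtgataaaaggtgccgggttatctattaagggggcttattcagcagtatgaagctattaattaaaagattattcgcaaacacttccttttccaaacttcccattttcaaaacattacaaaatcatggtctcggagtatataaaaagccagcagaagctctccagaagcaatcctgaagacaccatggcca
Mgl2: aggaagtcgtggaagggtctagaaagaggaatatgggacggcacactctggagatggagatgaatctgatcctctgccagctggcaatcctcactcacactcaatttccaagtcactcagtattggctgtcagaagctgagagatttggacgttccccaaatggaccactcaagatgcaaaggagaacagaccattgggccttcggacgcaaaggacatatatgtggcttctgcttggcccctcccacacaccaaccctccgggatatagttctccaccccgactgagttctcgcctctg
The Retnla window held 1 match, 145 bases upstream of the RefSeq start, and the windows of Chil3 and Mgl2 held none. The related spacing TTCNNNGAA, also a palindrome, occurred 1 time in the Chil3 window and in neither of the others. Of 32851 promoters of this length, 6.95% held TTCNNNNGAA and 8.3% held TTCNNNGAA, so a match in 1 window of 3 is a description of the letters only. On GRCm38 (GENCODE vM21) Retnla spans 48842551 to 48844461 of chromosome 16, Chil3 106147554 to 106167564 of chromosome 3, Mgl2 70130329 to 70137550 of chromosome 11 and Arg1 24915221 to 24927484 of chromosome 10. The GENCODE starts of Retnla and Mgl2 lie upstream of the RefSeq starts, so positions in the windows hold for RefSeq only. Of 6 genes looked up, 4 had an entry in the RefSeq table, among them Ear2, whose window held neither motif. Arg1 and Fn1 were not matched in the table used here.

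Genes of the cells that the label names were detected in the library. The marker lists were chosen with earlier results of these data known, so their levels describe the library and do not test its label. Core macrophage genes summed to 25666 CPM, the UMI count scaled to the library total, with Csf1r, Adgre1, Cd68 and the other 11 genes of that list all detected. The same list summed to 45099 CPM in 24 h M0. All 5 markers given for these cells, Retnla, Chil3, Mgl2, Fn1 and Ear2, were detected and summed to 15330 CPM, against 2.79 CPM in 24 h M0. Retnla alone was 13497 CPM of the 24 h M2 sum. Markers of most other cells were at or near 0. Exceptions were the MHC class II-rich list, at 1982 CPM against 410 in 24 h M0, and the cycling list, at 1202 against 1141. All 6 fibroblast genes were at 0, neutrophil genes summed to 3.6 CPM with 6 of 10 at 0, T and NK cell genes to 0.129 CPM with 4 of 5 at 0, dendritic cell genes to 3.73 CPM with 5 of 9 at 0, and M1 genes to 10.7 CPM with Nos2, Cxcl9 and Iigp1 at 0. Osteoclast genes, some of which fusing macrophages also express, summed to 140 CPM with Calcr alone of 6 at 0, against 76.3 CPM in 24 h M0 and 118 in 6 h M2. The list of megakaryocyte genes reached 3585 CPM, of which Pf4, a chemokine that macrophages also make, was 3569. The deposited matrices hold counts of unique molecular identifiers (UMIs), 7770517 in this library with a median of 2295.5 UMIs and 1008 genes per barcode. Medians were 1751 UMIs in 24 h M0 and 2529 in 6 h M2. For comparisons of cells, each barcode was therefore drawn down at random to 1000 UMIs, which left 2713 cells of 24 h M2, 2267 of 24 h M0 and 2709 of 6 h M2. Barcodes shared with any of the other 6 libraries numbered 71, or 2.43% of the 24 h M2 barcodes, and leaving them out moved the share of cells with all 4 main genes from 10.7% to 10.8%.

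Retnla was the gene that set the 24 h M2 library furthest from 24 h M0. It gave 104876 UMIs, or 13497 CPM (95% Poisson interval 13415 to 13579), in 24 h M2 and none in 24 h M0, which makes it at least 25758-fold higher when the absent gene is set to a floor of 3 counts in the library. Chil3 gave 7083 UMIs (912 CPM) against 0, at least 1740-fold higher. The ribonuclease gene Rnase2a gave 2348 UMIs (302 CPM) against 0, at least 577-fold higher. Arg1 went from 20 UMIs (3.49 CPM) to 25638 (3299 CPM), a 945-fold difference, and Mgl2 from 10 (1.75 CPM) to 5911 (761 CPM), or 436-fold. Fn1 went from 6 UMIs to 974 (120-fold). Ear2, with 280 UMIs (36 CPM) against 0, stayed under the minimum of 50 CPM set for these ratios. These intervals and floors cover counting error only. Ear2 and Rnase2a belong to a family of near-identical genes, as do Chil3 and Chil4, so the division of reads within each family is uncertain.

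Other genes with the largest ratios encode feedback, uptake and signalling proteins. Socs1 and Cish, which encode feedback inhibitors of JAK and STAT signalling, stood at 1331 against 9 UMIs (109-fold) and at 447 against 4 (82.3-fold). Slc7a2, which takes up the arginine that Arg1 uses, gave 876 against 6 UMIs (108-fold). Il4i1, a secreted amino acid oxidase named for its induction by IL-4, gave 975 against 8 (89.8-fold). Flt1, a receptor for vascular endothelial growth factor, gave 908 UMIs and Tmem26, a membrane protein, 538, with 1 UMI of each in 24 h M0. Of 2687 genes with at least 50 CPM in either library, 165 were at least 2-fold higher in 24 h M2 than in 24 h M0 (6.14%) and 144 at least 2-fold lower (5.36%). The median of all these genes was 0.06 on the log2 scale. Among genes that passed that minimum, 5 of 6 secreted products, 3 of 3 IL-4-induced chemokines (Ccl24, Ccl9 and Ccl6) and 6 of 6 lectins and surface receptors (Mgl2, Itgax, Clec10a, Cd300ld, Cd36 and Mrc1) were at least 2-fold higher, but the minimum lets a gene through when it is high in either library, so these counts are no support for the lists. Ccl24, an eosinophil attractant, went from 35 to 1268 UMIs (26.7-fold) and the integrin gene Itgax from 40 to 1015 (18.7-fold). The transcription factor genes Batf3 (2118 against 54 UMIs, 28.9-fold), Bhlhe40 (795 against 23, 25.5-fold), Klf4 (452 against 21, 15.9-fold) and Egr2 (605 against 38, 11.7-fold) were among the higher genes. Stat6 itself was level, at 51.2 against 49.4 CPM.

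The genes furthest below 24 h M0 were Rtp4, Slc40a1, Ms4a6b, Rapsn, Ctla2b and Stab1, in that order. Rtp4, an interferon-stimulated gene, had 26 UMIs against 468 in 24 h M0 (24.4-fold lower), and the iron exporter gene Slc40a1 had 22 against 303 (18.7-fold lower). Ms4a6b, a membrane protein gene, had 83 against 864 (14.1-fold lower). Stab1, a scavenger receptor, had 515 against 2731 (7.2-fold lower). Maf, a transcription factor of resident macrophages, had 312 against 1330 (5.79-fold lower). Of 14 core macrophage genes 13 passed the minimum, and 4 of these were at least 2-fold lower, among them lysozyme Lyz2 at 4857 against 17056 CPM.

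Between 6 h and 24 h of IL-4 the main genes took different courses. Arg1 stood at 2724 CPM at 6 h and at 3299 CPM at 24 h, a 1.21-fold difference. Retnla was 18.4-fold higher at 24 h than at 6 h, where it had 6209 UMIs (734 CPM). Chil3 was 19.5-fold higher (396 UMIs at 6 h), Rnase2a 31.9-fold (80 UMIs), Fn1 10.9-fold (97 UMIs) and Mgl2 4.99-fold (1289 UMIs). The feedback gene Socs1 (171 against 158 CPM), Batf3 (273 against 280) and Egr2 (77.9 against 72.3) were close to their 6 h values. Of 2813 genes tested, 95 were at least 2-fold higher at 24 h (3.38%) and 188 at least 2-fold lower (6.68%), with a median of -0.12. Lower at 24 h were Id1, an inhibitor of basic helix-loop-helix factors (5 against 1510 UMIs, 278-fold), and the monocyte attractants Ccl7 (1970 against 23387, 10.9-fold) and Ccl2 (2724 against 20471, 6.91-fold). Ccl17, a chemokine counted among the M2 genes, had 44 UMIs at 24 h and 467 at 6 h (9.75-fold lower), and 14 of the 2924 cells held all of its UMIs at 24 h. In the replicated bulk libraries the difference of Ccl17 between 24 h and 6 h did not pass the test.

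The bulk libraries measured the same genes in separate cultures with replicates, in FPKM, fragments scaled by transcript length and library total. Bulk RNA does not tell more expressing cells from more RNA per cell. Retnla stood at 6250, 5880 and 5450 FPKM in the 3 libraries of 24 h M2, at 1.08, 3.26 and 0.0871 in 24 h M0, and at 180, 286 and 288 in 6 h M2. The 3 conditions did not overlap. On the log2(FPKM + 1) scale the difference was 11.43 (SE 0.66, limma adjusted p = 4.46e-29) from 24 h M0 and 4.57 (SE 0.66, adjusted p = 3.04e-08) from 6 h M2. The small Retnla signal of bulk 24 h M0 has no counterpart in the single-cell library, which held 0 UMIs.

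Chil3 was measured at 1080, 1580 and 1310 FPKM in 24 h M2, at 0.658, 6.29 and 3.51 in 24 h M0 and at 81, 378 and 292 in 6 h M2. The lowest 24 h M2 library was above the highest of either other condition, and the log2 differences were 8.43 (SE 0.41, limma adjusted p = 8.19e-35) and 2.65 (SE 0.41, adjusted p = 1.41e-07). Mgl2 was at 413, 302 and 313 FPKM, against 0.702, 1.75 and 0.614 in 24 h M0 and 113, 48.6 and 64.1 in 6 h M2. It too did not overlap with either condition, with log2 differences of 7.44 (SE 0.29, limma adjusted p = 3.70e-42) and 2.25 (SE 0.29, adjusted p = 1.41e-09). Arg1 was at 2270, 2660 and 2990 FPKM in 24 h M2 and at 2.7, 11.1 and 7.97 in 24 h M0, a log2 difference of 8.47 (SE 0.54, limma adjusted p = 2.59e-26). In 6 h M2 it was at 1890, 1940 and 2330, lower than the 24 h library of the same replicate number in 3 of 3 pairs, though the ranges overlapped. The log2 difference of 0.36 (SE 0.54) did not pass the test (limma adjusted p = 6.58e-01, and 5.68e-01 with the replicate block).

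Fn1 was at 104, 104 and 171 FPKM in 24 h M2 and at 3.35, 20.2 and 21.2 in 24 h M0 (log2 difference 3.28, SE 0.58, limma adjusted p = 2.60e-06). Against its 31.8, 61.9 and 79.9 FPKM at 6 h the log2 difference of 1.17 did not pass (SE 0.58, limma adjusted p = 1.23e-01), although it did with the replicate number as a block (adjusted p = 1.53e-02). The single-cell log2 ratios of Fn1 were larger, at 6.90 against 24 h M0 and 3.45 against 6 h M2, and the cause of this gap was not tested. Ear2 was at 75.4, 74.9 and 82.7 FPKM, against 1.85, 10.6 and 7.06 in 24 h M0 (log2 difference 3.61, SE 0.56, limma adjusted p = 1.18e-07). Against 11, 44.2 and 45 FPKM at 6 h its log2 difference was 1.43 (SE 0.56, limma adjusted p = 4.58e-02), a call kept in 4 of 10 alternatives, and without the first 6 h library the difference was 0.79 (adjusted p = 4.19e-01). Rnase2a, called Ear11 in the bulk table, was at 206, 119 and 134 FPKM and rose from both conditions, by 7.05 (SE 0.35, limma adjusted p = 7.32e-34) and 3.37 (SE 0.35, adjusted p = 6.02e-13).

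**Figure D1:**
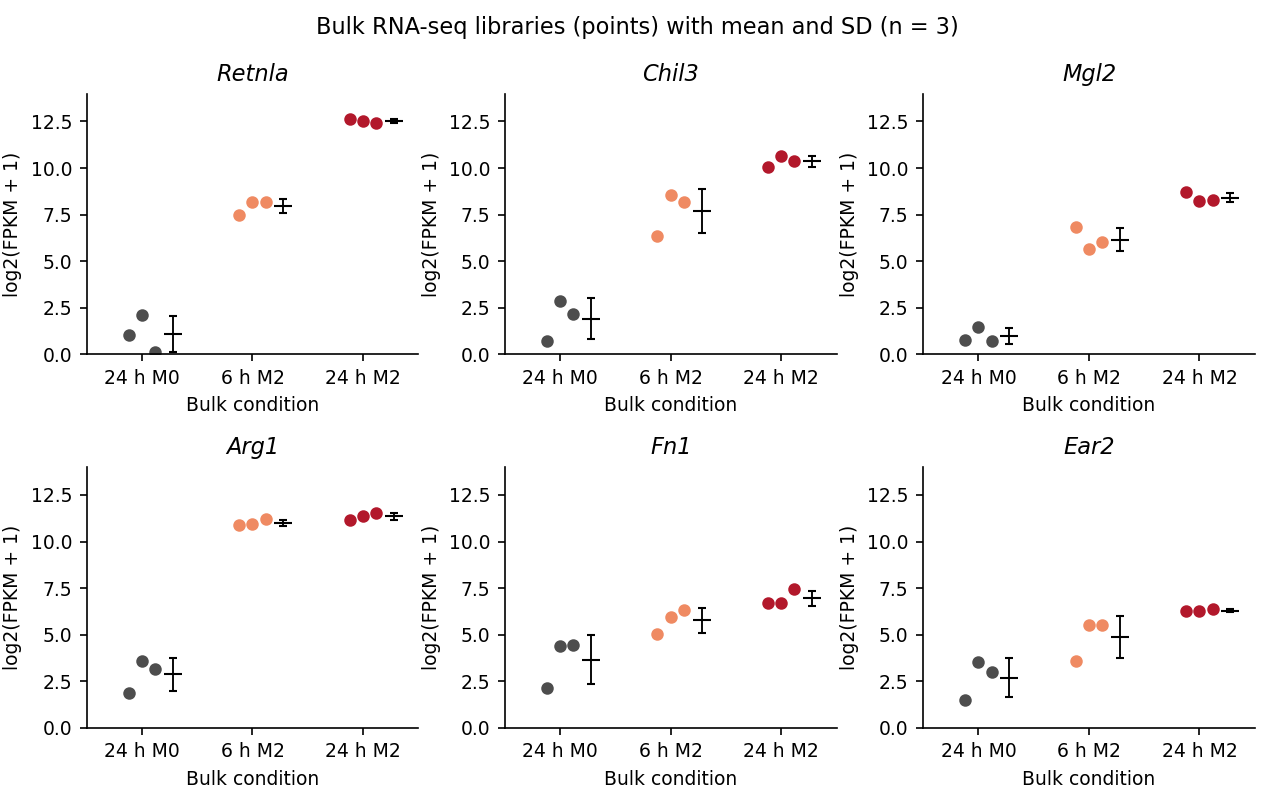
Bulk level of the 6 marker genes on the vertical axis, as log2(FPKM + 1), in the conditions 24 h M0, 6 h M2 and 24 h M2 on the horizontal axis. Points are libraries, and the bar beside them is the mean with its SD (n = 3). Retnla, Chil3, Mgl2, Fn1 and Ear2 stand highest at 24 h with no overlap, though Fn1 against 6 h did not pass the test. The Arg1 ranges of 6 h and 24 h overlap.

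Of 8307 genes in the bulk table, 1538 were higher in 24 h M2 than in 24 h M0 (18.5%) and 1252 lower (15.1%), or 33.6% in either direction, so a gene list has about these shares to be read against. Of 9 secreted products measured 7 rose and 2 did not pass the test, with a list median of 3.28 on the log2 scale against 0.02 over all genes. Of 6 chemokines tied to IL-4 5 rose, by 4.83 for Ccl22, 4.07 for Ccl24 and 2.51 for Ccl17 (limma adjusted p = 3.36e-12, 3.36e-12 and 2.64e-06), and Ccl6 did not pass (1.06, adjusted p = 0.2, and 1.17e-02 with the replicate block). Ccl17 was at 8.78, 2.67 and 4.19 FPKM and was listed at 0 in all 3 libraries of 24 h M0. Of 11 lectins and surface receptors 8 rose and 1, Clec4a1, fell. The mannose receptor gene Mrc1 rose by 1.28 (limma adjusted p = 2.92e-02), a call that 5 of 10 alternatives kept. Of 13 genes of the IL-4 receptor pathway 4 rose (Socs1, Socs2, Cish and Il2rg) and 3 fell (Il4ra, Jak3 and Ptpn6). Il4ra, the receptor chain itself, was at 9.76, 12 and 12.3 FPKM in 24 h M2, below 26, 25.1 and 27.3 in 24 h M0 and below 31.3, 54 and 57.9 in 6 h M2 (log2 differences -1.14 and -1.94, limma adjusted p = 4.65e-04 and 1.50e-08). In the single cells Il4ra was likewise lowest in 24 h M2, at 12.7 CPM, against 32.5 in 24 h M0 and 19.3 in 6 h M2.

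Of 13 transcription factor genes 7 rose (Egr2, Myc, Irf4, Pparg, Klf4, Bhlhe40 and Batf3) and 3 fell (Maf, Rxra and Bhlhe41). Maf was at 4.23, 6.44 and 6.78 FPKM in 24 h M2 and at 51.8, 41.9 and 30 in 24 h M0, a log2 difference of -2.62 (SE 0.31, limma adjusted p = 8.81e-12). Of 9 genes of cell fusion and adhesion 7 rose, with Ocstamp, which macrophages need to fuse into giant cells, at 43.6, 27.9 and 20.8 FPKM against 0.227, 0.168 and 0.207 (log2 difference 4.66, SE 0.26, limma adjusted p = 3.16e-30). All 6 measured genes of MHC class II presentation rose, from 1.09 for H2-Eb1 (limma adjusted p = 1.35e-02) to 1.89 for Cd74 (1.67e-05). Of 20 genes of oxidative phosphorylation and the TCA cycle 15 rose and 5 did not pass, and of 21 genes of cholesterol synthesis 11 rose and 10 did not pass. Of 25 interferon-stimulated genes 11 fell, among them Ifit1, Irf7 and Rsad2, and 14 did not pass.

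Against 6 h M2, 1003 bulk genes were higher at 24 h (12.1%) and 1391 lower (16.7%), or 28.8% in either direction. The counts varied with the fit. With the replicate block 1549 genes were higher, with only the libraries of both groups 585 were higher and 783 lower, and the count of higher genes was 623 without the first 6 h library and 668 without the third 24 h M2 library. Of the 9 secreted products 5 rose (Retnla, Chil3, Chil4, Ear2 and Rnase2a), while of the 13 IL-4 receptor pathway genes 3 fell (Il4ra, Socs1 and Socs2) and 10 did not pass. The chemokine Ccl22 rose by 2.82 (SE 0.55, limma adjusted p = 2.80e-05). Ccl24 fell by 1.18 on the log2 scale in bulk (SE 0.46, limma adjusted p = 4.56e-02, kept in 4 of 10 alternatives), yet it was 2.27-fold higher at 24 h in the single cells. Of the 165 genes at least 2-fold higher than 24 h M0 in the single cells, 156 were called higher in bulk (94.5%), with 25.7% of the shared genes called higher in all. Of 140 lower genes that bulk measured, 120 were called lower (85.7%, with 13.4% in all), and the other genes of both lists were not called. Against 6 h M2 the shares were 66.3% of 92 higher genes (13.1% in all) and 73.2% of 183 lower genes (17.6% in all), and 3 genes, Ccl24, Sepp1 and Mthfd2, were called the other way. In turn, the higher genes of the cells made up 23.1% of the bulk list of higher genes against 24 h M0 and 16.9% of that against 6 h M2.

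Within the 24 h M2 library Retnla was detected in nearly every cell but at very unequal levels. At 1000 UMIs a cell, 97.2% of 2713 cells had at least 1 Retnla UMI (95% exact interval 96.5 to 97.8), and 99.5% of all 2924 barcodes did before thinning. The mean was 15.2 UMIs with an SD across cells of 13.4. The lowest 5% of cells had at most 1 UMI, the median cell had 11, the highest 5% had 42 or more and the highest cell had 93. The 10% of cells with the most Retnla held 29.1% of its UMIs. In 6 h M2, 25.8% of cells had Retnla, with a mean of 0.823 and a maximum of 21, and in 24 h M0 it was seen in 0 of 2267 cells, which allows a share of up to 0.132% (3 counts of the total) of cells with a UMI at this depth and does not limit the cells that express the gene.

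Arg1 was broad as well, in 84.6% of cells (83.2 to 85.9), with a mean of 3.39 ± 3.01 UMIs (SD across cells), a median of 3 and a maximum of 18. Mgl2 was found in 40.3% of cells (38.5 to 42.2), with a mean of 0.67 and a maximum of 10. Chil3 was different in shape. It was found in 27.8% of cells (26.1 to 29.5), and in 40.6% before thinning, yet its mean of 0.914 exceeded that of Mgl2, and single cells reached 30 UMIs. The 10% of cells with the most Chil3 held 73.4% of its UMIs, against 46.2% for Mgl2 and 29.2% for Arg1. Fn1 was found in 10.4% of cells and Ear2 in 3.43%. At 6 h the shares were 77.3% for Arg1, 8.86% for Mgl2, 3.29% for Chil3 and 1.14% for Fn1. In 24 h M0, Arg1 was found in 0.221% of cells, Mgl2 in 0.0882% and Chil3 in none. No cell type known to lack these genes was identified in the 24 h M2 library. The share that RNA free in solution gives was therefore not measured within it, and its part was not tested.

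**Figure D2:**
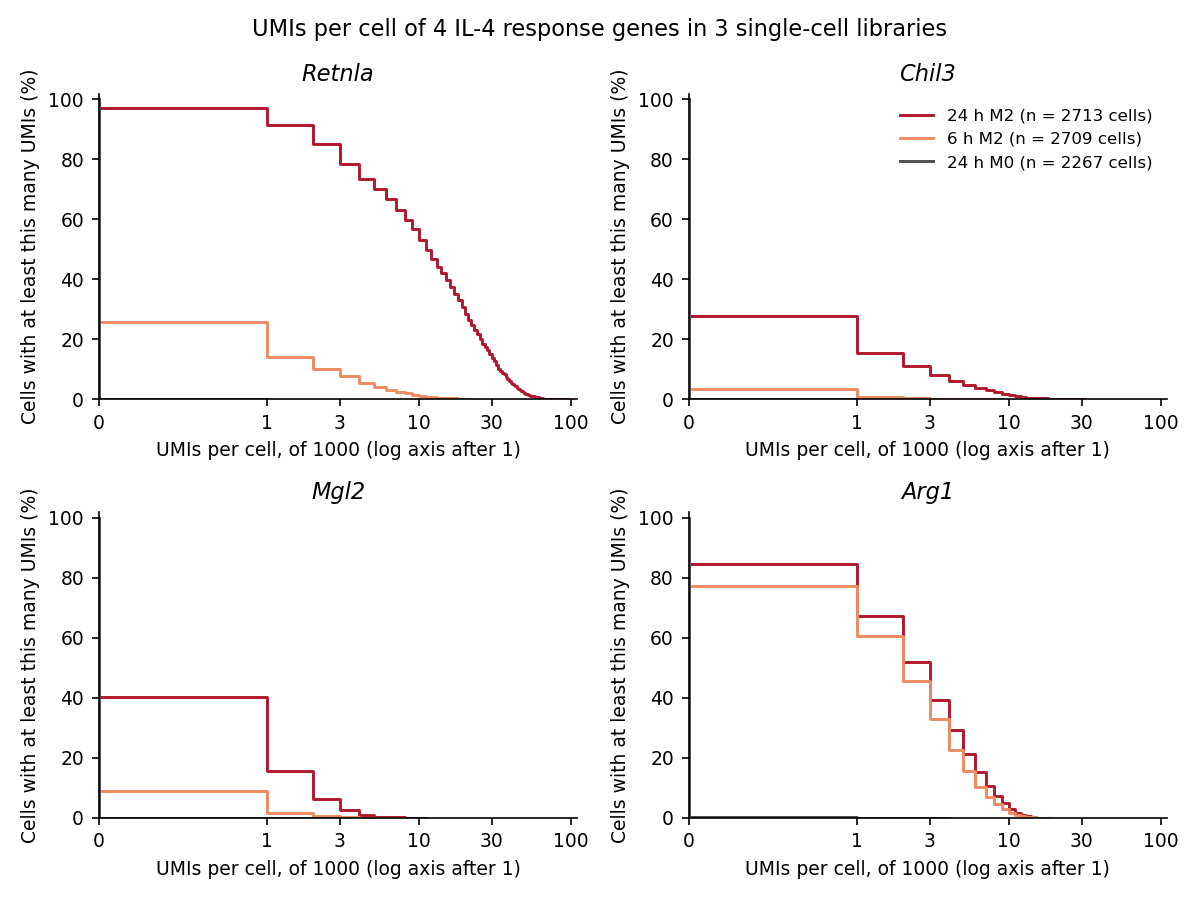
UMIs per cell on the horizontal axis, out of 1000 and logarithmic beyond 1, against the percentage of cells with at least that many on the vertical axis, for Retnla, Chil3, Mgl2 and Arg1. Lines are the libraries of 24 h M2 (2713 cells), 6 h M2 (2709) and 24 h M0 (2267, on or next to the horizontal axis throughout). Retnla spreads from 0 to 93 UMIs at 24 h, Chil3 is held by fewer cells with a long tail to 30, and the Arg1 lines of 6 h and 24 h lie close together.

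The spread of these genes was large beside genes of similar mean. The Fano factor, the variance divided by the mean, equals 1 for pure counting noise. It was 6.42 for Chil3, above the other 236 genes whose mean lay within 2-fold of its own, with a median of 1.09 among them. For Retnla it was 11.8, above the 6 genes of like mean, with a median of 2.32. For Arg1 it was 2.68 (97.1th percentile of 103 genes) and for Mgl2 1.7 (97.1th percentile of 308). Among 714 genes with a mean of at least 0.2 UMIs the 5 with the highest percentile among genes of like mean were Chil3, Retnla, Pf4 and the chemokine genes Ccl2 and Ccl7. By the ratio to the median of like genes, Gm42418 (4.83) and Cd74 (3.83) stood above Ccl2 (3.42) and Ccl7 (3.06). At 6 h Retnla had a Fano factor of 5.87 at its lower mean, and the 10% of cells with the most held 75.5% of its UMIs.

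Cells with all 4 of Retnla, Chil3, Mgl2 and Arg1 numbered 290 of 2713, or 10.7% (95% exact interval 9.55 to 11.9). The product of the 4 single shares is 9.22%. The most common state was Retnla with Arg1 alone, in 948 cells (34.9%, product 35.4%). Retnla, Mgl2 and Arg1 without Chil3 followed with 630 cells (23.2%, product 24%), then Retnla, Chil3 and Arg1 without Mgl2 with 368 (13.6%, product 13.6%). Retnla alone was found in 203 cells (7.48%, product 6.46%), and 10 cells (0.369%) had none of the 4. In all, 1142 cells had 2 of the genes and 1033 had 3. At 6 h no cell of 2709 had all 4, 1325 (48.9%) had Arg1 alone and 434 (16%) had none, while 99.7% of 24 h M0 cells had none. The shares depend on depth. With 500 UMIs a cell 4.04% had all 4, and before thinning 24.2% did.

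**Figure D3:**
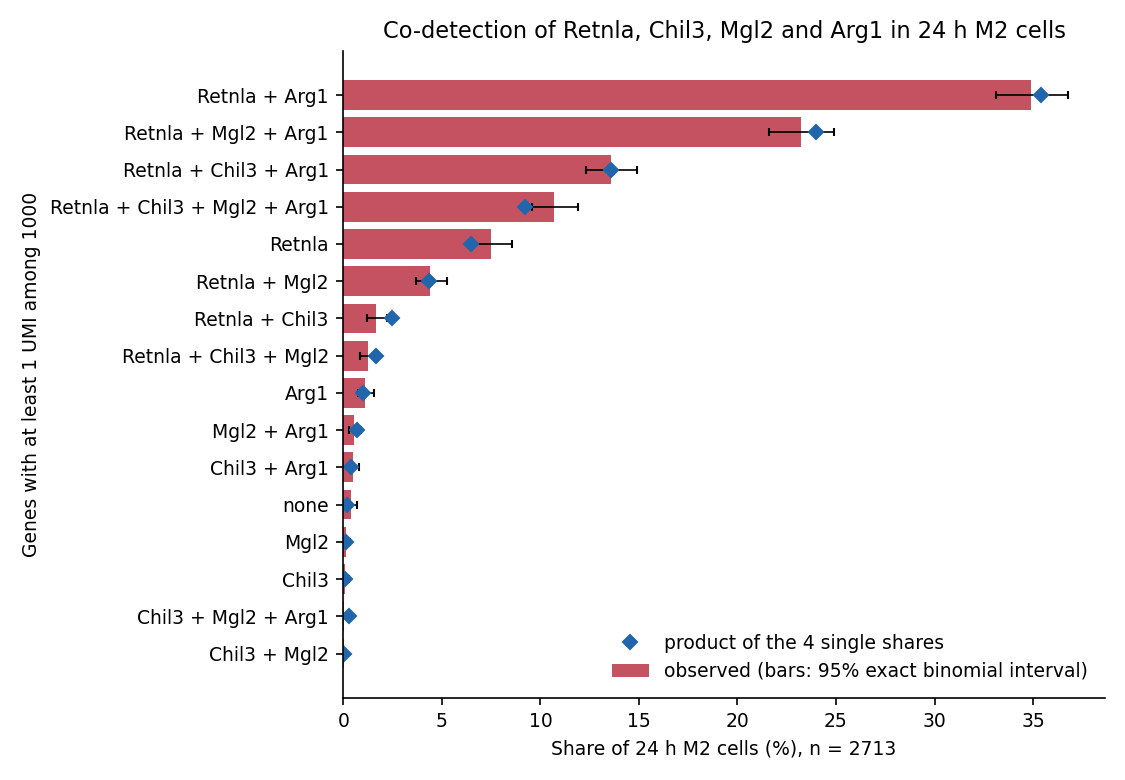
Share of 2713 cells of 24 h M2 on the horizontal axis, in percent, with at least 1 UMI of exactly the genes named on the vertical axis. Bars are the observed shares with 95% exact binomial intervals, and diamonds the product of the 4 single shares. The longest bars end close to their diamond, and the high shares of Retnla and Arg1 limit how far they can differ. All 4 genes together stand at 10.7% against 9.22%. Some rarer states differ more, such as Retnla with Chil3 at 1.66% against 2.48% and none of the 4 at 0.369% against 0.184%.

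Pair by pair, both genes were seen together 1.00 to 1.07 times as often as the product of their shares. With Retnla in 97.2% of cells and Arg1 in 84.6%, the ratio of a pair with either gene has little room above 1.00. For these pairs a ratio near 1.00 was largely set by the shares and does not show whether the genes vary together. The ratio was 1.07 for Chil3 with Mgl2 and 1.05 for Chil3 with Arg1. Arg1 was found in 89.1% of the 754 cells with Chil3 and in 82.8% of the 1959 without. Mgl2 was found in 43.2% and 39.2% of the same cells. Spearman correlations across the 2713 cells of this 1 library were 0.19 for Retnla with Arg1, 0.14 for Chil3 with Arg1, 0.13 for Retnla with Mgl2, 0.07 for Retnla with Chil3, 0.07 for Mgl2 with Arg1 and 0.03 for Chil3 with Mgl2. All share a library and a fixed depth, and correlations this weak in sparse counts are given only as a description.

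To set these values beside what sparse counts allow, each gene was also compared with itself. The 1000 UMIs of each cell were divided at random into separate sets of 500, and the count in the first set was correlated with the count in the other. Retnla reached 0.85 with itself, Chil3 0.56, Arg1 0.45, Mgl2 0.21, Fn1 0.19 and Ear2 0.11. Between different genes the same measure was 0.16 for Retnla with Arg1, 0.10 for Retnla with Mgl2, 0.10 for Chil3 with Arg1, 0.06 for Retnla with Chil3, 0.06 for Mgl2 with Arg1 and 0.01 for Chil3 with Mgl2. Retnla and Chil3 were each far closer to themselves than to the other genes, while for Mgl2 both values were low. At 6 h Retnla reached 0.56 with itself, Arg1 0.46 and Chil3 0.34, and the pairs of these 4 genes lay between -0.02 and 0.04.

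**Figure D4:**
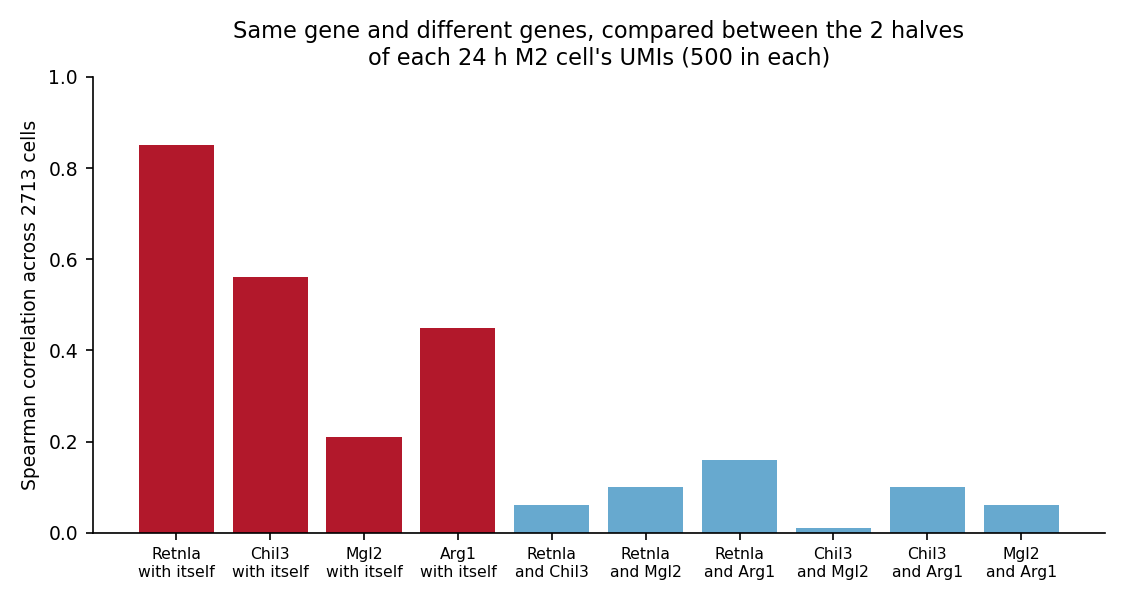
Spearman correlation across 2713 cells of 24 h M2 on the vertical axis, between counts in separate sets of 500 UMIs drawn from each cell. Red bars compare a gene with itself and blue bars a gene with another. Retnla reaches 0.85 and Chil3 0.56 with itself, while the 6 pairs lie between 0.01 and 0.16.

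Cells ranked by Retnla also differed in other genes. In the 679 cells with the least Retnla (0 to 4 UMIs, mean 2.1) Arg1 averaged 2.44 ± 2.46 UMIs (SD across cells), and in the 678 cells with the most (22 to 93 UMIs, mean 34.3) it averaged 3.88 ± 3.12. Mgl2 averaged 0.51 and 0.799, and Chil3 0.756 and 1.03. Of 617 genes detected in at least 20% of cells, those with the highest correlation with Retnla were the chemokine Ccl6 (0.22), Arg1 (0.19) and the complement gene C1qb (0.17). The lowest were Fth1, the heavy chain of the iron store ferritin (-0.23), and Vim, an intermediate filament (-0.20). The 5th to 95th percentile of all 616 genes was -0.07 to 0.07. Ccl6 averaged 1.97 UMIs in the cells with the least Retnla and 3.36 in those with the most. The other way ran Vim (1.17 and 0.572), the secreted phosphoprotein Spp1 (0.611 and 0.227) and the matrix metalloelastase Mmp12 (1.19 and 0.532). Retnla itself ran slightly against depth, with a correlation of -0.19 with the cell's total UMIs, and median totals were 2657 UMIs in the cells with the least and 2032 in those with the most. The part of depth was not tested.

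Most of the 75 cells without a Retnla UMI among 1000 had another of the main genes. Of them 78.7% had Arg1, 26.7% Mgl2 and 22.7% Chil3, compared with 84.8%, 40.7% and 27.9% of the 2638 cells with Retnla. Before thinning 2908 of all 2924 barcodes had a Retnla UMI, so most of these 75 zeros came from the random draw. They are not a group of cells without Retnla. Their Mmp12 mean was 1.79 UMIs, against 0.805 in the cells with Retnla. Median totals before thinning were 2889 and 2407.5 UMIs. All cells were cut to the same 1000 UMIs, so these totals do not say why Retnla was missed.

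For Mgl2 the highest correlation was with Cd74 (0.16), the invariant chain of MHC class II, with H2-DMa (0.10) among the top 8. The lowest were Fth1 (-0.22) and Gpnmb (-0.16), and Fth1 was also lowest for Arg1 (-0.16). Arg1 and Cd74 ran against each other (-0.10). Correlations with the cell's total UMIs were 0.15 for Mgl2, 0.18 for Cd74 and 0.11 for H2-DMa, and the part of depth was not tested. For Chil3 the leading genes were Arg1 (0.14), Apoe (0.12) and Lyz2 (0.10), and for Arg1, after Retnla and Chil3, Pf4, Ccl9 and Igf1 at 0.09 each. Among the 15 genes with the most excess spread, 105 pairs could be formed, and the strongest was Ccl2 with Ccl7 at 0.43, 2 chemokine genes for the same receptor. The mitotic genes Ube2c and Birc5 followed at 0.37. Rnase2a and Cd74 reached 0.21 and Retnla with Rnase2a 0.16, above Retnla with Chil3.

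MHC class II genes picked out a small set of cells. The summed UMIs of H2-Aa, H2-Ab1 and H2-Eb1 were 3 or more in 64 of 2713 cells (2.36%, exact interval 1.82 to 3), with a maximum of 36, and the 27 cells with the most held 42.4% of these UMIs. The shares were 0.838% in 24 h M0 and 1.33% in 6 h M2. The limit cuts a continuous range, with 58 cells at exactly 2 UMIs and 22 at exactly 3. H2-Aa and H2-Ab1 were found together 6.57 times as often as the product of their shares. These were 6.23% and 6.3%, which leaves the ratio far more room than for pairs with Retnla or Arg1. In the 64 cells Cd74 averaged 9.45 ± 6.15 UMIs (SD across cells), against 1.22 ± 1.92 in the other 2649. Retnla averaged 15.4 ± 15.2 against 15.2 ± 13.4. Arg1 averaged 1.78 ± 1.89 against 3.42 ± 3.02 and Chil3 0.344 ± 0.946 against 0.928 ± 2.45, while Mgl2 averaged 1.25 ± 1.96 against 0.656 ± 1.03 and Rnase2a 0.953 against 0.262. Dendritic cell markers were found in 5 of the 64 cells and in 5 of the 2649. Among macrophage genes Lyz2 averaged 3.23 against 4.81 and Pf4 1.22 against 4.01, while Csf1r averaged 0.406 against 0.534 and Adgre1 0.234 against 0.289. Median totals were 3561 and 2402 UMIs. The part of depth in these differences was not tested.

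Clustering of the 2924 barcodes, with Retnla, Chil3, Mgl2 and Arg1 left out of the genes used, gave 3 clusters. Cluster 2 (910 cells, 31.1%) was cycling-like, with Top2a, Ube2c, Mki67 and Cdk1 among its 10 leading genes. Clusters 1 (1328 cells, 45.4%) and 3 (686 cells, 23.5%) had few named markers among theirs and stay unnamed. Their depths differed, with medians of 1654, 2639 and 3686.5 UMIs for clusters 1, 2 and 3. Retnla averaged 18.9 ± 15.6 thinned UMIs (SD across cells) in cluster 1, 11.6 ± 10.3 in cluster 2 and 13.2 ± 10.9 in cluster 3, and was detected in 98.1%, 96.2% and 97.1% of their cells. The clusters held 6.11% of the variance of Retnla across cells, 1.41% of that of Mgl2, 0.408% of that of Chil3 and 0.199% of that of Arg1. Mgl2 averaged 0.575, 0.63 and 0.885 UMIs and Arg1 3.51, 3.19 and 3.42. All 4 genes together were found in 10.6%, 9.86% and 11.9% of the cells. Within clusters the Fano factor of Retnla was still 12.9, 9.15 and 8.98 and that of Chil3 6.58, 4.12 and 7.93.

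**Figure D5:**
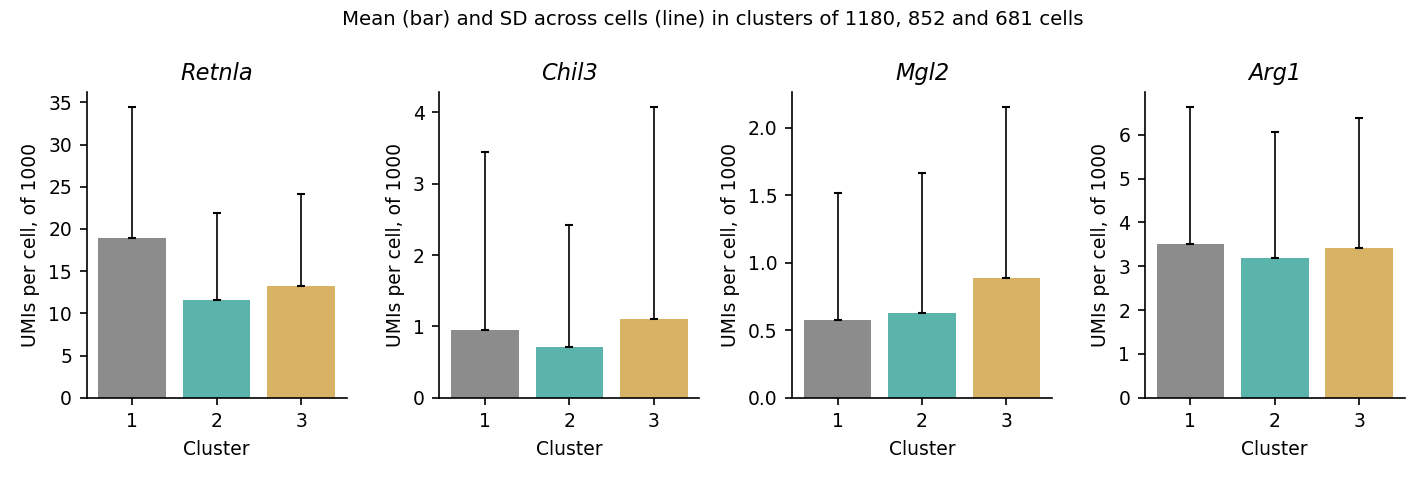
UMIs per cell out of 1000 on the vertical axis for Retnla, Chil3, Mgl2 and Arg1 in clusters 1, 2 and 3 of the 24 h M2 library, on the horizontal axis. Bars are means and lines reach 1 SD across cells above them. Retnla averages 18.9, 11.6 and 13.2, and in every panel the SD across cells of a cluster exceeds the differences between clusters.

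Cells with at least 2 UMIs of 8 cycling markers made up 25.2% of 24 h M2 at fixed depth, against 21% in 24 h M0 and 20.1% in 6 h M2. Before thinning the shares were 38.2%, 28.2% and 34.6%. With at least 5 such UMIs at fixed depth they were 6.89%, 7.54% and 4.06%, so the order of 24 h M2 and 24 h M0 turned with the limit. Retnla averaged 12 ± 10.8 UMIs (SD across cells) in these 684 cells and 16.8 ± 14.5 in the 1554 cells without such a UMI, whereas Arg1 averaged 3.25 and 3.36, Mgl2 0.662 and 0.668, and Chil3 0.728 and 0.962.

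The share of 24 h M2 cells in the range of untreated cells depended on the genes summed. UMIs of 37 genes of secreted products, chemokines, lectins and intracellular products of IL-4-treated macrophages were summed at 1000 UMIs a cell. The median sum was 28 in 24 h M2, 4 in 24 h M0 and 9 in 6 h M2, and at least 95% of 24 h M0 cells had 10 or fewer. Of the 24 h M2 cells 181, or 6.67% (exact interval 5.76 to 7.68), had 10 or fewer, against 59.2% of 6 h M2 cells. With the limit at the 99th percentile of 24 h M0, 14 UMIs, the shares were 15.3% and 84.1%. Without the 4 main genes the medians of the other 33 genes were 10, 4 and 6, and 55.4% of 24 h M2 cells and 88.8% of 6 h M2 cells lay within the 24 h M0 range.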

How the data were processed

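Single-cell and bulk RNA-seq of mouse BMDMs were used. For single cells the authors made 10X Genomics libraries, ran Cell Ranger on mm10 and deposited UMI counts of 27998 genes per barcode. For bulk, TopHat2 (2.0.14) and Cuffnorm (2.2.2) are named in the processing notes, with FPKM as the result, and the authors deposited log10(FPKM + 1), a log10 value per gene, for 145 libraries. The bulk table holds 8307 genes, and each reaches at least 10.1 FPKM in some library. Its depth is unknown.

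From there, single-cell counts were summed per library and scaled to CPM. With 1 library per condition no test was made, and genes were compared by a 2-fold ratio among those with at least 50 CPM in either library. Barcodes were thinned to 1000 UMIs with a fixed seed, which left out 211 shallower barcodes of 24 h M2, 460 of 24 h M0 and 0 of 6 h M2. Exact binomial and Poisson intervals (95%) cover counting error only. No doublet caller was run, and an alternative left out the 1% of barcodes with the most UMIs. Clusters came from scanpy 1.11.5 and leidenalg 0.10.2 (resolution 0.5, 20 neighbours, 30 components of 2000 variable genes). Bulk values were converted to log2(FPKM + 1) and tested with limma 3.58.1 in R 4.3.3, with all 145 libraries sharing the estimate of the spread and Benjamini-Hochberg adjustment over all genes (threshold 0.05).

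The labels number the bulk replicates but do not say what equal numbers share. Deviations from the group mean correlated between 24 h M2 and 24 h M0 libraries of the same number by 0.69, 0.35 and 0.57. With 6 h M2 the values were 0.56, 0.44 and 0.49. Between different numbers they were -0.56 to 0.15 and -0.57 to 0.27. Deviations of 3 libraries sum to 0, which lowers the latter. The block was an alternative fit. The genes named are the 6 markers, members of gene lists, the genes with the largest ratios, the strongest correlates of the 4 main genes, the 15 with the most excess spread, and cluster leaders. The MHC class II cells were picked out after the data were seen. The members and lists were chosen with earlier results of these data known. Older symbols were matched (Chi3l3 for Chil3, Ear11 for Rnase2a), and Clec7a, Ighm and Trac were not analysed here in single cells. Scripts were tested on simulated data. Python 3.11.15 with scipy 1.17.1 was used.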

Additional observations from a re-analysis of the deposited data

How the results depend on the processing

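Single-cell ratios and shares describe 1 library per condition, and no replicate error is known for them. Lowering the minimum from 50 to 10 CPM raised the counts at least 2-fold higher and lower from 165 and 144 to 418 and 346 against 24 h M0, and from 95 and 188 to 354 and 434 against 6 h M2. The share of cells with all 4 genes was 4.04% at 500 UMIs a cell, 16.2% at 1500, 24.2% without thinning and 2.25% when at least 2 UMIs were asked for. The correlation of Retnla with Chil3 was 0.11 at 1500 UMIs, and that with Mgl2 was 0.09 at 500 and 0.17 at 1500. At 500 UMIs the Fano factors were 6.69 for Retnla and 3.76 for Chil3. At a resolution of 1.0 there were 6 clusters, and those led by cycling genes held 24.9% of cells. The share of cells within the range of 24 h M0 was 15.3% at the 99th percentile, 9.23% at 500 UMIs and 55.4% without the 4 main genes. Other depths also changed which cells were kept. The cause of these shifts was not tested.

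In bulk, with only the libraries of 24 h M2 and 6 h M2 in the fit, 585 genes were higher and 783 lower. With the replicate block the counts were 2101 higher and 1740 lower against 24 h M0, and 1549 higher and 1951 lower against 6 h M2. The block raised all 4. Leaving out each library in turn gave 1022 to 1629 higher and 994 to 1158 lower genes against 24 h M0, and 623 to 957 higher and 989 to 1420 lower against 6 h M2. The lowest count against 24 h M0, 1022, was without the first 24 h M0 library. Against 6 h M2, the count of higher genes fell to 623 without the first 6 h library and to 668 without the third 24 h M2 library. No named gene that passed the test in the main fit changed direction in an alternative, and genes that had not passed were not checked for this. The cause of these shifts was not tested. Over all alternatives, single named genes lost their call 314 times and gained one 225 times. Outcomes of named genes stayed the same 6905 times, a count that includes the single-cell ratios of the markers.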
